A study of Caenorhabditis elegans with 6 samples.

Results

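The SR protein genes of C. elegans, rsp-1 to rsp-8, were read in RNA from sorted touch neurons. Their symbols were matched to 8 gene identifiers out of 46726 in the count files, and each symbol matched a single identifier. The experiment holds 6 libraries of polyA RNA from L4 larvae, 3 of them wild type and 3 mec-8(e398), a mutant in the splicing regulator MEC-8. Both genotypes were sorted for GFP made from the mec-4 promoter, which marks the touch neurons, although the sample labels give N2 and mec-8(e398) as the strains and leave the transgene out. Each library came from many dissociated larvae, synchronized by bleaching and fed OP50 bacteria, so no library stands for a single animal. Reads counted on genes ranged from 15334872 to 33094142 per library, and the SR genes had between 122 and 6345 counts each, far above the floor of 3 counts. Library values are listed in the order of replicates 1, 2 and 3 throughout.

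SR proteins carry an RNA recognition domain and a tail rich in arginine and serine. They bind exonic enhancers in the pre-mRNA and help to bring the spliceosome to nearby splice sites. SR genes in many animals also make transcripts with premature stop codons that are removed by nonsense-mediated decay. MEC-8, the product of the gene mutated in mec-8(e398), is another kind of RNA binding protein, of the RBPMS family, which regulates particular exons in touch neurons. The question addressed by the counts was therefore how much of the general SR machinery these libraries held, and whether its level differed in the mec-8 mutant.

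The 8 genes lie on 3 chromosomes of WBcel235. On chromosome II, rsp-2 runs from 11451441 to 11452955 on the minus strand and rsp-1 from 11453362 to 11455864 on the plus strand, so that the pair is transcribed away from a shared interval of 406 bases that holds 0 other genes. Chromosome II also carries rsp-4 at 5387411 to 5388836 (minus), rsp-5 at 6490165 to 6491340 (plus) and rsp-7 at 10659206 to 10662317 (plus). On chromosome III lie rsp-3, at 12686182 to 12687922 (minus), and rsp-8, at 11826418 to 11830974 (plus). The last, rsp-6, is on chromosome IV at 7789847 to 7791229 (minus). All 8 are annotated as protein coding, with 1065 to 2347 bases of exon over all their transcripts. Of the 6 annotated transcripts of rsp-1, 1 is classed as noncoding, and so are 2 of the 3 of rsp-6. Exons of other genes share 5 to 73 bases with rsp-1, rsp-2, rsp-3, rsp-4 and rsp-7 and 0 bases with the other 3. Since the strand setting of the counting is not given in the sources used here, reads in those short stretches cannot be assigned with certainty. For rsp-4 the 8 shared bases belong to a gene on the same strand, so that no strand setting would separate those reads. Counts over a whole gene do not separate its coding from its noncoding transcripts.

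The libraries differed widely within a genotype. Reads on more than 1 gene made up 11.1% of uniquely mapped reads in wild-type replicate 1 and at most 3.04% in the others. The 10 touch neuron markers summed to 14706, 1620 and 4833 CPM (counts per 1000000 reads on genes) in the wild-type libraries. They summed to 11523, 1026 and 1462 CPM in the mec-8 libraries, and 0 of the 10 were undetected in any library. The 11 germline markers summed to 868 to 3815 CPM, the 5 body wall muscle markers to 3448 to 75936 CPM and the 5 intestinal markers to 29.6 to 2973 CPM, so genes of other cells were present in each library. None of the germline or intestinal markers was at 0 in any library, while 2 of the 5 muscle markers were at 0 in mec-8 replicate 3. For 4 of the 5 intestinal genes every mec-8 library was above every wild-type library, as it was for 5.5% of the 14614 genes tested. In RNA from a population of sorted cells, fewer cells of a type and less RNA per cell cannot be told apart. The mutated gene itself, mec-8, stood at 35.3, 8.64 and 9.33 CPM in wild type against 23.4, 6.48 and 2.60 CPM in the mutant, with overlapping genotypes. A count over the whole gene does not show the mutation.

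Together the SR genes took a small part of each library, and that part varied more between libraries of a genotype than between genotypes. Their share of gene counts was 0.0764%, 0.0397% and 0.0272% in wild type. In the mutant libraries the share was 0.0184%, 0.0635% and 0.0235%. Wild-type replicate 1 and mec-8 replicate 2 stood highest and mec-8 replicate 1 lowest, so the genotypes overlapped. Counting error was small, with a 95% Wilson interval of 0.0753% to 0.0775% for the highest library and of 0.0179% to 0.0188% for the lowest. The wild-type mean was 0.0478% ± 0.0256 (SD, n = 3). The mutant mean was 0.0351% ± 0.0247 (SD, n = 3), and the means differed by less than either SD. A single library carried much of each mean. Without mec-8 replicate 2 the mec-8 mean was 0.0209%, and without wild-type replicate 1 the wild-type mean was 0.0335%. The libraries richest in touch neuron markers, wild-type replicate 1 and mec-8 replicate 1, were those with the highest and the lowest SR share. The part of cell makeup in these levels was not tested.

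**Figure D1:**
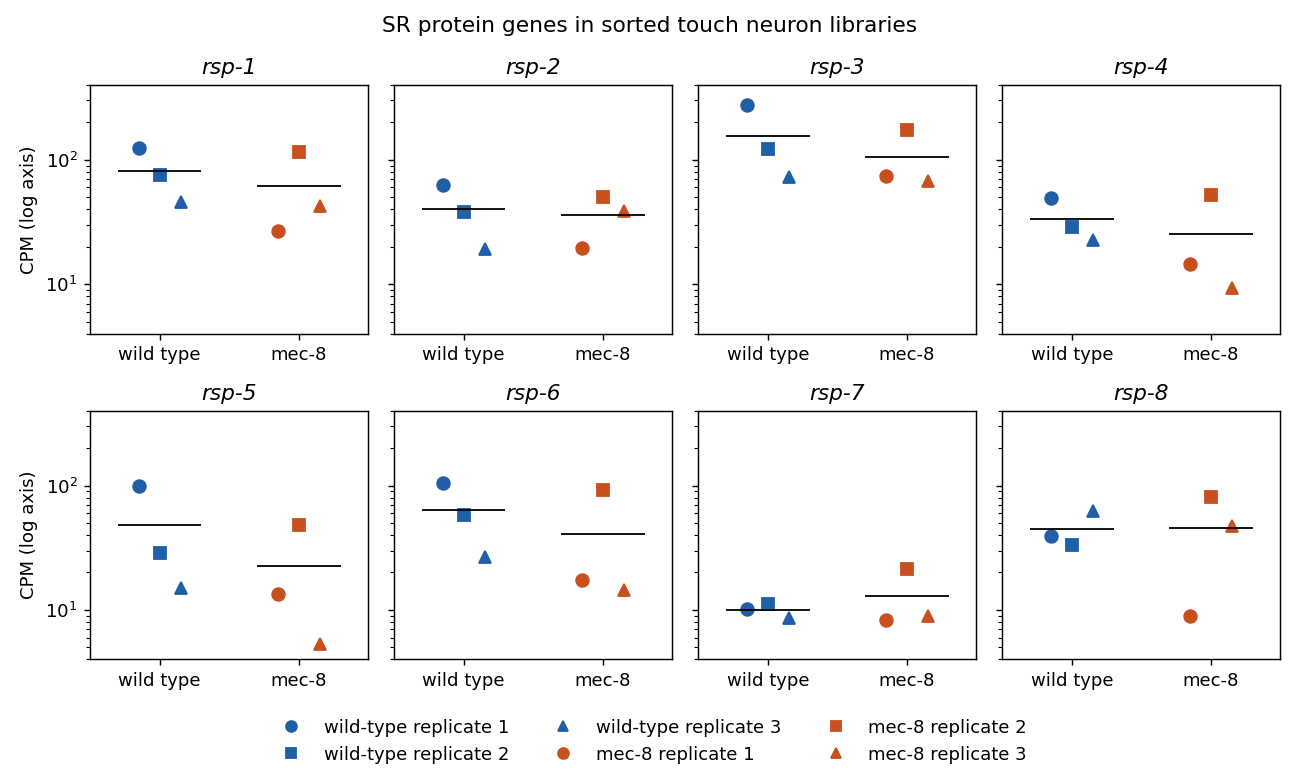
Level of each SR gene in CPM on a logarithmic axis, with 1 point for each library, colour for genotype, symbol shape for replicate and a line at the mean of 3 libraries. Wild-type replicate 1 or mec-8 replicate 2 is the highest library for each of the 8 genes, and the genotypes overlap for each.

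The most abundant member was rsp-3, the worm gene for SF2/ASF (SRSF1 in humans), whose depletion by RNA interference is lethal to worm embryos. Wild-type libraries held 274, 123 and 72.3 CPM of it, and mec-8 libraries 74.7, 175 and 68.1 CPM. Wild-type replicate 1 was highest and mec-8 replicate 3 lowest, and the wild-type range enclosed 2 of the 3 mec-8 values. In every library rsp-3 was the largest of the 8 by counts, at 26.5% to 40.7% of all SR counts. Its position among the genes detected in a library was between percentiles 86.1 and 96.8.

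The head-to-head neighbours rsp-1 and rsp-2 encode proteins related to SRp75 and SRp40 of vertebrates, which have a second RNA recognition domain. The level of rsp-1 was 124, 75.4 and 46.1 CPM in wild type against 27.0, 116 and 42.7 CPM in the mutant. For rsp-2 the wild-type libraries had 63.0, 37.9 and 19.2 CPM and the mec-8 libraries 19.7, 49.9 and 39.0 CPM. Both genes were highest in wild-type replicate 1 and next highest in mec-8 replicate 2. Per kilobase of exon the ratio of rsp-1 to rsp-2 was 0.907, 0.913 and 1.10 in wild type against 0.629, 1.06 and 0.503 in the mutant. Their levels per kilobase were therefore near each other in 4 libraries, and rsp-2 was the higher of the pair in mec-8 replicates 1 and 3. By counts rsp-1 was the higher in every library, at 1.09 to 2.40 times rsp-2. The order per kilobase thus rests on the exon lengths used. These were 1078 bases for rsp-2 and 2347 bases for rsp-1, the latter over 6 transcripts of which 1 is noncoding. Across libraries the ratio of rsp-1 to rsp-2 spanned 2.19-fold, the third smallest spread among the 28 pairs of members, while the rsp-1 level spanned 4.61-fold.

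The genes rsp-4, the worm SC35 (SRSF2), and rsp-6, the worm SRp20 (SRSF3), encode small SR proteins with a single RNA recognition domain. Wild-type libraries had 49.0, 28.6 and 22.6 CPM of rsp-4, and mutant libraries 14.4, 52.1 and 9.29 CPM. For rsp-6 the wild-type levels were 105, 58.4 and 26.6 CPM and the mutant levels 17.3, 91.5 and 14.4 CPM. For both genes 2 mec-8 libraries lay below all wild-type libraries, while mec-8 replicate 2 lay among or above them. The ratio of rsp-4 to rsp-6 spanned 1.82-fold over the 6 libraries, the smallest range of any pair. The widest range of level among the 8 belonged to rsp-5, with 99.4, 28.8 and 15.0 CPM in wild type against 13.3, 48.4 and 5.37 CPM in the mutant, an 18.5-fold span. Here too 2 mec-8 libraries were below every wild-type library and mec-8 replicate 2 was not.

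The last members are more distant from the classical SR proteins. The gene rsp-7 encodes a relative of vertebrate p54 (SRSF11). Its level was 10.1, 11.3 and 8.54 CPM in wild type against 8.34, 21.3 and 8.90 CPM in the mutant, so that 5 libraries lay close together and mec-8 replicate 2 stood above them. It was the lowest member per kilobase in all 6 libraries. The gene rsp-8 encodes a relative of Transformer-2, a splicing factor first known from sex determination in Drosophila. Wild-type libraries held 39.4, 33.1 and 62.0 CPM of rsp-8 and mutant libraries 8.88, 80.9 and 46.9 CPM, so that it was highest in mec-8 replicate 2 and lowest in mec-8 replicate 1. In CPM, unlike the other members, rsp-8 was higher in wild-type replicate 3 than in wild-type replicates 1 and 2. That library was the only 1 in which a gene other than rsp-3 led per kilobase. With TMM scaling rsp-7 was also highest there among wild-type libraries, at a log2 CPM of 3.45 against 3.23 and 3.22.

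Per kilobase of exon, the mean level over the 6 libraries was 80.7 ± 49.96 CPM per kilobase (SD, n = 6) for rsp-3 and 6.33 ± 2.76 (SD, n = 6) for rsp-7, the ends of the order. Between them stood rsp-6 at 42.2, rsp-8 at 38.0, rsp-2 at 35.4, rsp-5 at 32.9, rsp-1 at 30.6 and rsp-4 at 27.2 CPM per kilobase. Within libraries rsp-3 was above rsp-6 in 6 of 6, by a log2 difference of 1.14 ± 0.53 (SD, n = 6). Likewise rsp-4 was above rsp-7 in 6 of 6, by 1.94 ± 0.73 (SD, n = 6). No other neighbours in this order differed beyond their spread, with mean log2 differences of -0.29 to 0.58 against SDs of 0.46 to 1.26, and each of those neighbours changed places in at least 1 library. The exon lengths used for rsp-1 and rsp-6 include their noncoding transcripts, and levels over coding exons alone were not computed.

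**Figure D2:**
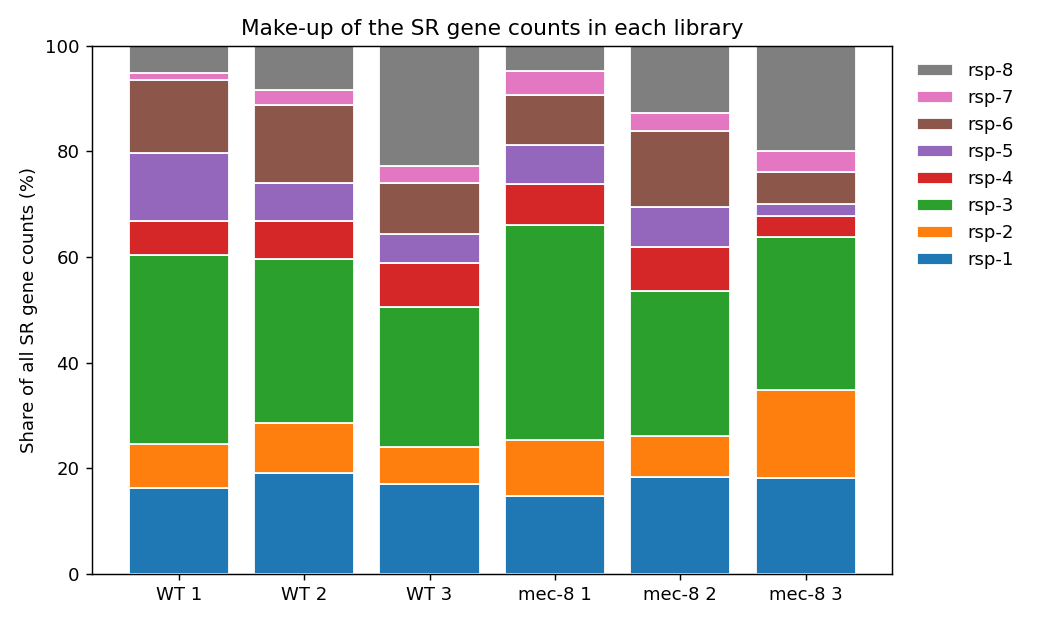
Share of all SR gene counts, in percent, taken by each SR gene in each of the 6 libraries (WT, wild type), stacked to 100%. The rsp-1 band keeps a like width, between 14.7% and 19.01%, while rsp-8 ranges from 4.84% to 22.8%.

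Most SR genes varied less against the rest of the family than in their own CPM. Each member's spread between libraries was measured as the SD of its log2 CPM, and again as the SD of the log2 ratio of its counts to the sum of the other 7. The median over members was 0.93 for the level and 0.52 for the ratio, and 7 of the 8 had the smaller SD for the ratio. The level here was CPM without TMM scaling, whereas any scaling factor of a library cancels in the ratio. With genotype means removed, the median SD of the members was 0.95 with library size alone and 0.70 with TMM scaling. The SDs of the level thus depend on the scaling used. The ratio was not set against a TMM-scaled level over the 6 libraries, and the part of scaling in this difference was not tested. The difference was widest in rsp-1, at 0.87 for the level and 0.16 for the ratio, followed by rsp-6 at 1.23 and 0.55 and by rsp-5 at 1.49 and 0.88. In rsp-8 the SDs were nearly alike, 1.11 and 1.08, and its share of SR counts was 22.8% and 20.0% in replicate 3 of wild type and of the mutant, against 4.84% to 12.8% in the other libraries. In rsp-7, whose level varied least, the order was turned, with 0.51 for the level and 0.63 for the ratio. The ratio between rsp-5 and rsp-8 had the widest range of the 28 pairs, 22.1-fold. Shares of a total must offset each other, so these values describe the libraries and are not independent of one another.

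**Figure D3:**
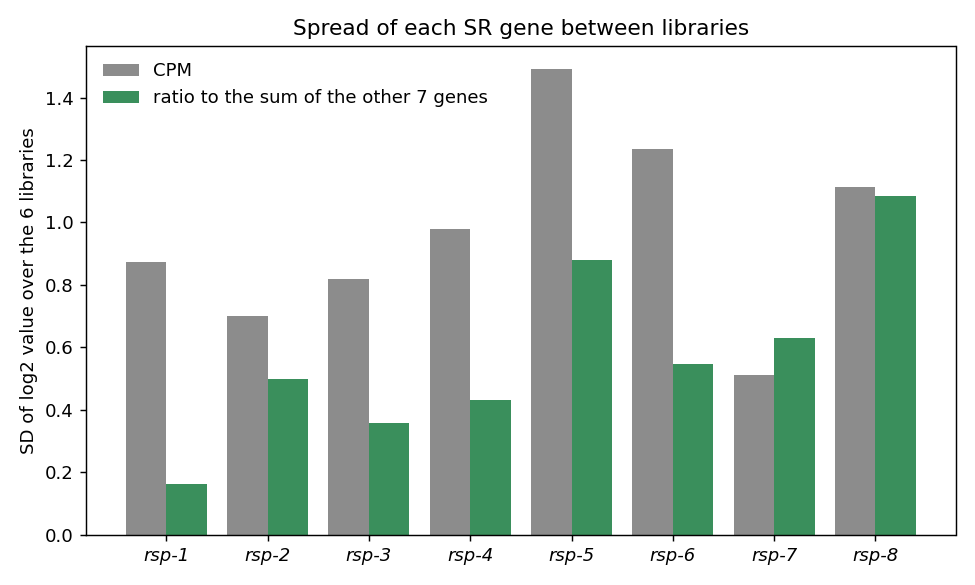
SD over the 6 libraries of the log2 CPM of each SR gene (grey bars) and of the log2 ratio of its counts to the sum of the other 7 SR genes (green bars). For rsp-1 the SD is 0.87 for the level and 0.16 for the ratio, whereas for rsp-8 it is 1.11 and 1.08.

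The members varied less between libraries than most genes tested, though not all of them did so against well-counted genes. With the genotype means removed and TMM scaling, the SD of log2 CPM had a median of 0.70 over the 8 SR genes and of 1.52 over the 14614 genes tested, and all 8 were below that median. The values ran from 0.30 for rsp-7, where 0.944% of the tested genes had a smaller SD, to 1.26 for rsp-5 and 1.14 for rsp-8. The tested genes include many with few counts, where counting error adds to the SD. Among the 8391 genes with at least 10 counts in every library the median was 0.98, against 0.70 for the members, all of which were among them. Against that median rsp-5 and rsp-8 were above, rsp-6 was close to it at 0.96, and 6 of the 8 were below.

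Between the genotypes 0 of the 8 SR genes had an adjusted p under 0.05 in edgeR's quasi-likelihood test, against 0.0% of the 14614 genes tested. At an unadjusted p under 0.05 there were again 0 of the 8, against 3.22% of all genes, and with DESeq2 0 of the 8 had an adjusted p under 0.05, against 0.278% of the genes it tested. No member separated the genotypes by library. Every mec-8 library was below every wild-type library in 1.49% of the genes tested, and above in 5.5%. The log2 fold change, taken as mutant over wild type, was below 0 for 7 members and above 0 for rsp-7. Its median over the members was -0.50, against 0.0080 over all genes tested, of which 49.5% were below 0. When only the 8391 genes with at least 10 counts in every library were fitted, their median was -0.090. The members moved together between libraries, so these 7 signs are not 7 separate observations.

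The estimate farthest from 0 was that of rsp-5, with a log2 fold change of -1.19 (standard error 0.97, 95% interval -3.47 to 1.10). Its p in edgeR's quasi-likelihood test was 0.261 before and 1.0 after adjustment, and the adjusted p was 1.0 for the other 7 as well. For rsp-6 it was -0.74 (standard error 0.83, 95% interval -2.68 to 1.20), for rsp-3 -0.57 (interval -2.18 to 1.04) and for rsp-4 -0.53 (interval -2.32 to 1.27). The remaining estimates were -0.48 for rsp-1 (interval -2.07 to 1.11), -0.19 for rsp-8 (interval -2.19 to 1.81), -0.11 for rsp-2 (interval -1.68 to 1.47) and 0.30 for rsp-7 (interval -1.49 to 2.09). Every interval held 0 and also held differences of 1 on the log2 scale in either direction, so a change of that size in an SR gene was not detectable with these libraries. Single libraries set much of the estimates. Without wild-type replicate 1 the rsp-5 value was -0.13 and the rsp-3 value 0.037, and without mec-8 replicate 2 the rsp-5 value was -2.07 and the rsp-7 value -0.046.

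**Figure D4:**
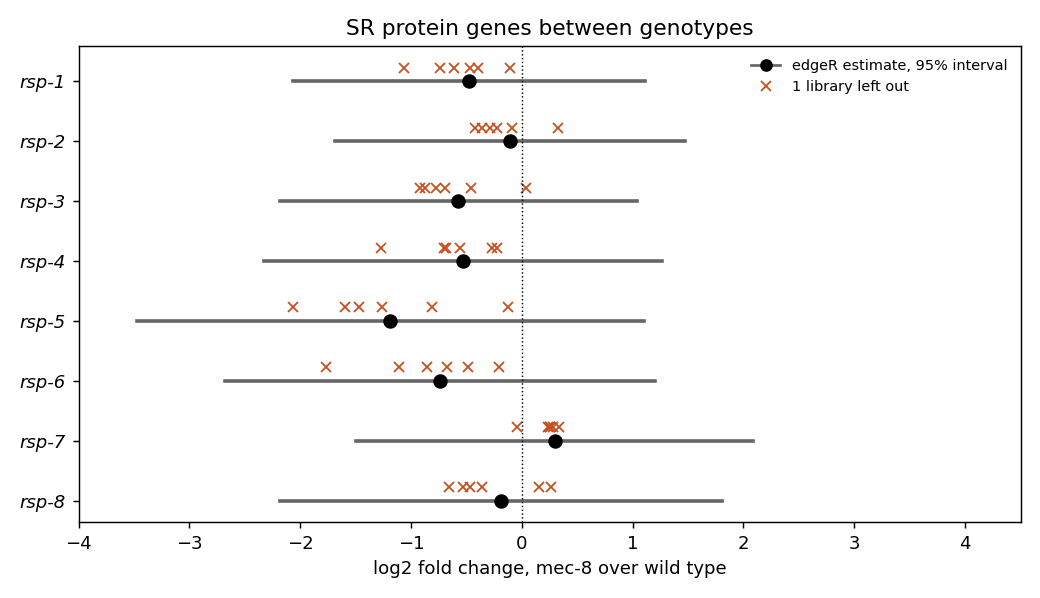
Log2 fold change of each SR gene, mutant over wild type, from edgeR (black points) with its 95% interval (grey lines), and the estimates with 1 of the 6 libraries left out (crosses). Each interval includes 0, and for rsp-5 the crosses spread from -2.07 to -0.13.

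The SR proteins act within a larger machinery, and 49 genes in 5 lists of it were read alongside. Of these, 0 had an adjusted p under 0.05 in edgeR's quasi-likelihood test, against 0.0% of the 14614 genes tested. At an unadjusted p under 0.05 there were again 0, against 3.22% of all genes tested. Phosphorylation of the serine-rich tail by SR kinases, and import by transportin-SR, bring SR proteins to the nucleus. The SR kinase gene spk-1 stood at 292, 454 and 264 CPM in wild type against 124, 525 and 213 CPM in the mutant, with overlapping genotypes and a log2 fold change of -0.31 (standard error 0.69). The gene tsr-1, for transportin-SR, ranged from 6.47 to 61.0 CPM with overlapping genotypes and a log2 fold change of -0.61 (standard error 0.95). The gene madd-3, for a kinase of the CLK family, was the only 1 of the 49 whose libraries did not overlap between genotypes, all mutant libraries being lower, as in 1.49% of all genes tested. Its level was 28.6, 25.6 and 30.4 CPM in wild type against 23.5, 10.3 and 12.6 CPM in the mutant. The log2 fold change was -0.78 with a standard error of 0.77, and the adjusted p of edgeR's quasi-likelihood test was 1.0.

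Among 5 genes of SR-related proteins, log2 fold changes ran from -1.42 for rnp-5, which encodes a relative of RNPS1, to -0.054 for swp-1, with a median of -0.40. Among 25 genes of the core spliceosome, which removes introns, 20 had a log2 fold change below 0 and 5 above. Of all genes tested, 49.5% were below 0. The spliceosome values ran from -1.82 for the branch point binding protein gene sfa-1 to 0.47 for the helicase gene ddx-23, with a median of -0.33. In mec-8 replicate 3 sfa-1 had only 3 counts. All 7 genes of hnRNP-type regulators, which often oppose SR proteins at exons, were below 0, from -1.09 for ptb-1 to -0.016 for hrpk-1. The sign for hrpk-1 was positive with library size alone, and so was that for swp-1. Of the 9 smg genes of nonsense-mediated decay, 5 were above 0 and 4 below, from -0.67 for smg-8 to 0.58 for smg-5. Without wild-type replicate 1 the rnp-5 value was -0.022 and the smg-8 value 0.0011. Each of these lists had its lowest summed CPM in mec-8 replicate 1, so the signs within a list are not separate observations.

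Across libraries the sum of the SR genes went most closely with that of the SR-related genes among the lists read here. The SR sum was 764, 397 and 272 CPM in wild type against 184, 635 and 234.7 CPM in the mutant. The SR-related sum was 332, 240 and 167 CPM in wild type against 73.8, 356 and 130 CPM in the mutant. Both sums were lowest in mec-8 replicate 1 and high in wild-type replicate 1 and mec-8 replicate 2, and the log2 ratio between them had an SD of 0.26 over the 6 libraries. With the core spliceosome, at 1126 to 3821 CPM, the SD of the log2 ratio was 0.50. With the germline markers it was 0.76, and with the touch neuron markers 1.88. Wild-type replicate 3 had the highest germline marker sum in CPM and stood below the mean in SR genes, whereas mec-8 replicate 2 was high in both. Gonad tissue is rich in RNA processing factors, and the part of germline RNA in the SR levels was not tested.

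**Figure D5:**
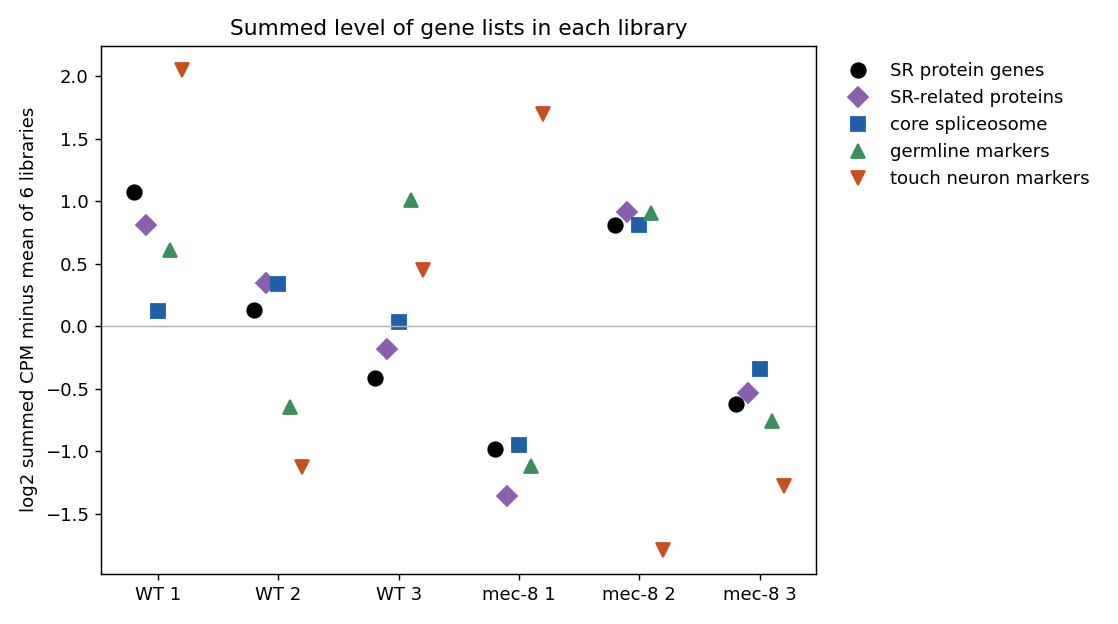
Log2 of the summed CPM of 5 gene lists in each of the 6 libraries (WT, wild type), each list minus its own mean over the libraries. The SR-related genes and the SR genes stand within 0.5 of each other in each library, while the touch neuron markers part from them, most of all in mec-8 replicates 1 and 2.

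Genes with a like pattern were looked for by the root mean square difference from the SR sum, in TMM-scaled log2 CPM centred over the 6 libraries. The nearest 5 of the genes tested, members apart, were moc-3 at 0.067, C46H3.2 at 0.080, cya-1 at 0.081, C54G4.9 at 0.094 and tres-1 at 0.098, where the median gene stood at 1.61. The nearest, moc-3, stood at 70.0, 34.3 and 26.0 CPM in wild type against 16.9, 60.1 and 19.7 CPM in the mutant, which is the order of the SR sum in all 6 libraries. Of the members, rsp-1 was closest to the sum at 0.12, although it is itself a part of that sum, and rsp-5 and rsp-8 were farthest at 0.75 and 0.87. With 6 libraries and this many genes, such closeness is a description only.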

How the data were processed

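The authors made libraries from RNA of GFP-sorted cells, mapped the paired reads with STAR and deposited raw read counts per gene from HTSeq. The counter's version, overlap mode and strand setting are not given in the sources used here. Lines for reads not assigned to a single gene, 12.3% to 76.2% of all lines by library, were left out of library sizes. Among them, alignments that were not unique numbered 70024247 in wild-type replicate 1 and 1922629 to 11988379 in the other libraries. Genotype and replicate number came from the sample titles. Of 46726 identifiers, 46364 were in the Ensembl annotation of WBcel235 used here, which gave symbols, coordinates and exon lengths. The SR genes and the other lists were chosen with earlier results of these data known.

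CPM used reads on genes as the total. All genes passing filterByExpr were fitted with edgeR 4.0.16 in R 4.3.3 (TMM, estimateDisp, glmQLFit, glmQLFTest), with genotype as the only term and Benjamini-Hochberg adjustment over 14614 genes at 0.05, and all 8 SR genes passed the filter. Standard errors were derived from each log2 fold change and its F statistic, and 95% intervals used the test's degrees of freedom. Log2 CPM for spreads had a prior count of 0.5. Alternatives used DESeq2 1.42.0, limma 3.58.1 voom with quality weights, other scalings and filters, a replicate block, and each library left out. The fits were tested on simulated data. The labels do not say whether replicates were separate cultures, although the study calls them biological. The p-values set the difference between genotypes against the spread between these libraries. Intervals on shares cover counting error only. Named genes were the members, mec-8, the extreme fold changes of each of the 5 machinery lists, and the 5 genes nearest in pattern. The gene tsr-1, between the extremes of its list, was named as well.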

Additional observations from a re-analysis of the deposited data

How the results depend on the processing

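Each of the 8 SR genes was refitted under 13 alternatives. None passed the adjusted threshold in any of them, and 97 refits kept the sign of the reported estimate while 7 turned it. Over all genes, DESeq2 called 44 genes after adjustment, 31 of them higher and 13 lower in mec-8 mutants, where edgeR called 0 (470 at an unadjusted p under 0.05) and limma voom 0 (449 unadjusted). The estimate for rsp-8 was 0.023 with library size alone, and that for rsp-2 was 0.23 with limma voom. Leaving out each library in turn gave ranges of -0.42 to 0.33 for rsp-2, -0.92 to 0.037 for rsp-3, -0.046 to 0.34 for rsp-7 and -0.66 to 0.26 for rsp-8, while rsp-1, rsp-4, rsp-5 and rsp-6 stayed below 0. Of the other named genes, hrpk-1 stood at 0.045 with library size alone, at 0.020 with at least 10 counts in every library and at 0.029 with the replicate block, and swp-1 at 0.071 with library size alone. Leave-one-out ranges were -0.21 to 0.22 for hrpk-1, -0.83 to 0.22 for swp-1 and -1.05 to 0.0011 for smg-8. Upper-quartile scaling put the median log2 fold change of all genes at -0.11, against 0.0080 with TMM. Libraries with the same replicate number correlated in their deviations from the genotype means at 0.056, 0.47 and -0.16 across genes. Libraries with different numbers were not compared in this way, so whether the numbers pair the libraries was not settled. With the replicate number as a block, 0 of the 8 SR genes and 0 genes in all were called (240 unadjusted), and rsp-5 stood at -1.23. The mean SR share and the median spread of the SR genes moved by less than 1 SD under every alternative run. Leaving out 1 of 3 libraries cannot move their mean by that much. Without the 10 most abundant genes of each library the mean share was 0.0625% in wild type and 0.0413% in mec-8, against 0.0478% and 0.0351%. The median spread was 0.95 with library size alone, against 0.70, and 0.64 to 0.79 with 1 library left out.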
